A study of Mus musculus with 44 samples.

Results

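The 8 genes of the T cell receptor complex and of costimulation (Cd3d, Cd3e, Cd3g, Cd8a, Cd4, Cd28, Icos and Ctla4) described here were followed across 43 lymphomas and 1 spleen of Eµ-myc mice. They were chosen by gene symbol, not by measured values, and were read by 12 of the 22690 probe sets of the Affymetrix Mouse430A_2 array. In these mice an enhancer of the immunoglobulin heavy chain locus, active in B lineage cells, drives Myc from a transgene, and B cell lymphomas develop. All 44 arrays shared that genotype, the labels name no treatment, and they state neither age, sex nor strain, nor whether each lymphoma came from its own mouse or whether the spleen was free of tumour. P-values therefore measure the spread between these samples. Lymphoma tissue was frozen whole or as a pellet of suspended cells, and which array followed which route is not stated.

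T cells recognise antigen through a receptor whose variable chains cannot signal by themselves. The CD3 chains carry the signal into the cell, CD4 and CD8 bind MHC class II and class I molecules beside the receptor, CD28 and ICOS add an activating costimulatory signal, and CTLA-4 restrains the response by competing for the ligands of CD28. In a B cell tumour such transcripts are usually read as a mark of T cells among the tumour cells, although a lymphoma cell can express a gene of another lineage. In bulk RNA, fewer T cells and less of a transcript per cell cannot be told apart.

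The arrays formed 2 sets by overall level, as column medians were 6.22 to 6.46 in 36 lymphomas (set 1) and 6.86 to 7.02 in 7 lymphomas and the spleen (set 2). Levels are log2 RMA values, compared only within a set, and differences from the set mean of the lymphomas were used across sets. Lymphomas are numbered 1 to 43 by accession, 1 to 36 being set 1. Cd79a, a signalling chain of the B cell receptor, had a median of 11.40 in set 1 and 11.45 in set 2, but stood at 6.42 in lymphoma 32, and was 8.92 in the spleen. Lymphomas 9, 13, 32 and 40 had the lowest Cd79a relative to their set mean, at -1.68 in lymphoma 13 and -4.63 in lymphoma 32, and the regressions on Cd4, which changed most without them, are given with and without them. The number of arrays limited the precision.

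The 3 CD3 genes lie together on chromosome 9 (GRCm38.p6). Cd3g (44969572 to 44980431) and Cd3d (44981769 to 44987052) are transcribed away from each other, and Cd3e (44998735 to 45009663) follows. In set 1, Cd3d ranged from 4.97 through a median of 7.49 to 10.98, and in set 2 from 6.81 through 8.15 to 11.21. Cd3e ranged from 5.92 through 6.90 to 8.89 in set 1 and from 6.90 through 7.43 to 9.02 in set 2. Cd3g had the widest range, from 4.07 through 7.06 to 10.16 in set 1 and from 5.63 through 6.86 to 11.50 in set 2. Lymphoma 36 was highest for Cd3d and Cd3g and lymphoma 4 for Cd3e within set 1, and lymphoma 39 was highest for all 3 in set 2.

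The coreceptor genes lie on chromosome 6, Cd8a at 71373427 to 71379171 and Cd4 at 124864693 to 124888247. Cd8a, the alpha chain of CD8, ranged from 6.19 through 6.71 to 8.44 in set 1 and from 7.16 through 7.50 to 8.34 in set 2. Cd4 ranged from 5.43 through 6.15 to 9.86 in set 1, with lymphoma 32 highest, and from 6.34 through 6.45 to 9.23 in set 2, with lymphoma 40 highest. Lymphoma 32 thus had the highest Cd4 of set 1 although its Cd3e lay below the set mean.

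The 3 costimulation receptor genes form a cluster on chromosome 1, with Cd28 at 60746388 to 60773359, Ctla4 at 60909025 to 60915832 and Icos at 60960773 to 61000322. Cd28 ranged from 3.61 through 4.65 to 7.44 in set 1, with lymphoma 9 highest, and from 4.83 through 5.43 to 9.52 in set 2, with lymphoma 40 highest. Icos ranged from 5.32 through 6.05 to 8.73 and from 6.29 through 6.65 to 9.30, and Ctla4 from 4.09 through 4.63 to 7.27 and from 5.35 through 5.40 to 7.90, in sets 1 and 2. Lymphomas 30 (set 1) and 39 (set 2) were highest for both Icos and Ctla4.

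**Figure D1:**
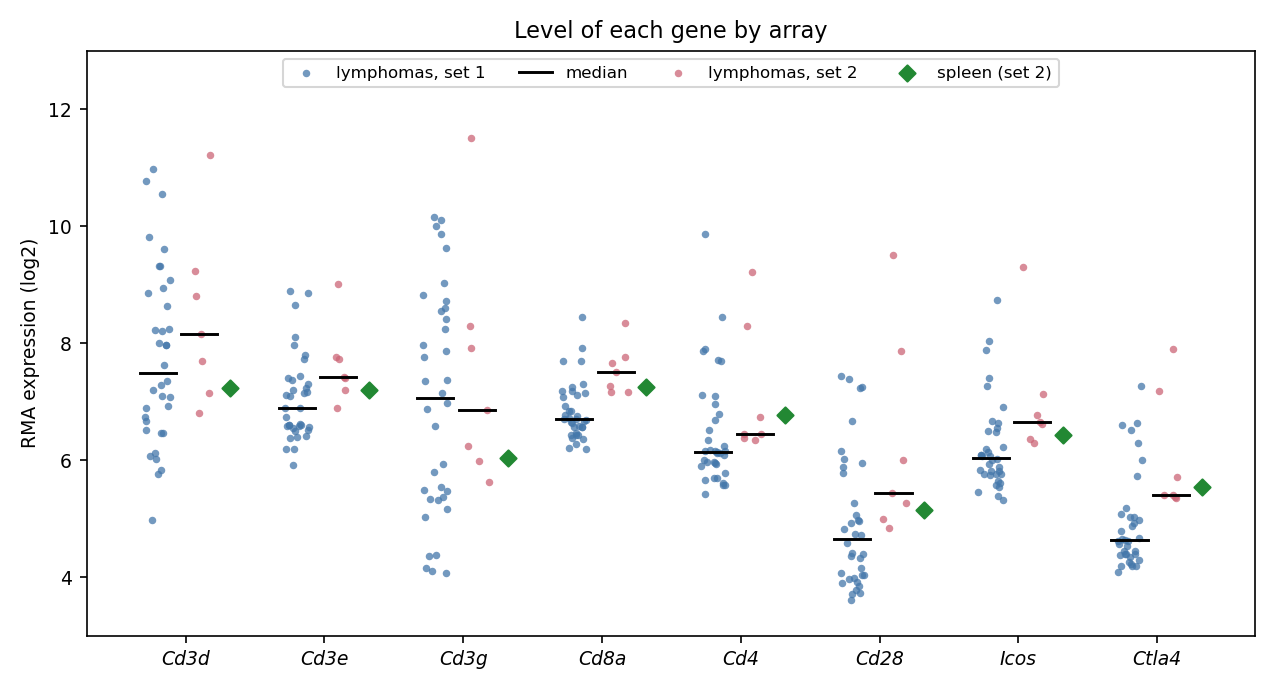
RMA expression (log2, vertical axis) of the 8 genes on each array: points are lymphomas of set 1 (blue) and set 2 (red), bars the medians, and diamonds the spleen, which belongs to set 2. For Icos in set 1 most lymphomas lie low (median 6.05) with a few far above (highest 8.73), and Cd3g is spread over its whole range. On the 1 probe set plotted per gene, the spleen lies within the range of the 7 lymphomas of its set for every gene.

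The SD over the 43 lymphomas, after removal of the set means, was 1.94 for Cd3g, 1.51 for Cd3d, 1.26 for Cd28, 0.99 for Cd4, 0.86 for Ctla4, 0.82 for Icos, 0.73 for Cd3e and 0.49 for Cd8a. All 8 exceeded the median SD of 0.338 over 8721 genes kept for testing, and 3 of 8 had an SD of at least 1, against 6.97% of all genes. Cd4, Cd8a, Cd28 and Icos were each read by a second probe set. The 2 readings correlated at r = 0.93 for Cd8a, 0.99 for Cd28 and 0.97 for Icos over 43 lymphomas, but at r = 0.84 and rho = 0.61 for Cd4, whose second probe set had an SD of only 0.33. The second probe set of Cd8a had a wider SD than the one used, 1.04. These correlations describe probes of the same RNA and carry no test.

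The same lymphomas were high for most of the genes. Lymphomas 4, 30, 36 and 39 were among the 5 highest of 43 for 6 or 7 of the 8 genes, and never ranked below 9. In lymphoma 36 Cd3d stood 3.21, Cd3g 3.17, Cd28 2.44, Cd3e 1.80, Icos 1.79, Ctla4 1.71, Cd8a 0.86 and Cd4 0.64 above the set mean. In all, 7 lymphomas lay above the set mean for all 8 genes and 18 lay below it for all 8. Lymphomas 2, 16 and 35 were among the 5 lowest for 5 or 6 genes.

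**Figure D2:**
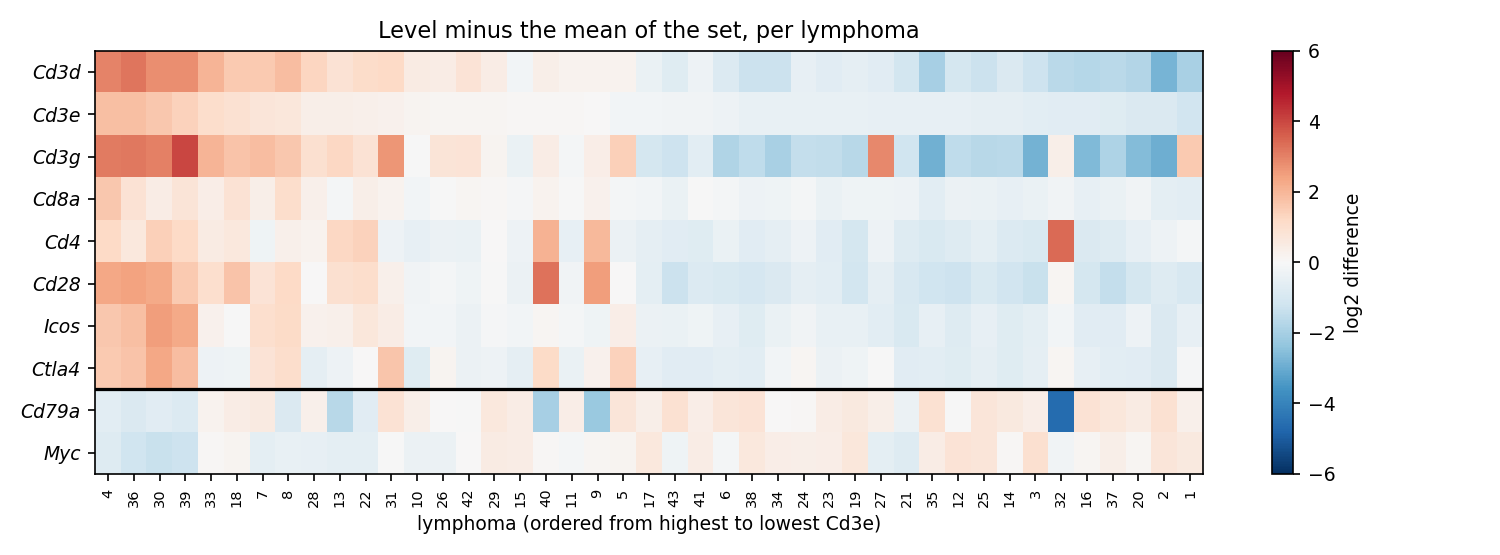
Level minus the set mean (log2, colour) of the 8 genes, and of Cd79a and Myc below the line, in the 43 lymphomas ordered by Cd3e. Lymphomas 4, 36, 30 and 39 at the left are high for nearly all 8 genes, while single fields depart from the order, such as Cd4 in lymphoma 32 (3.39) and Cd3g in lymphoma 27 (2.88).

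Of the 28 pairs of these genes 26 were correlated (two-sided permutation tests within sets, 100000 permutations, Benjamini-Hochberg over the 28 pairs; the smallest p they can give is 1e-05). The values of Icos and Ctla4 fell into separate groups of lymphomas, an upper group of 6 for Icos (4, 7, 8, 30, 36 and 39) and of 9 for Ctla4 (the same 6 with 5, 31 and 40). Pairs with Icos were therefore computed in the lower 37 lymphomas and pairs with Ctla4 in the lower 34. The 15 pairs over all 43 lymphomas had r from 0.451 to 0.964 with a median of 0.782. Over the 7 lymphomas of set 2 alone, 7 pairs passed after adjustment (exact permutation test) and 14 did not. There the pairs with Icos used 6 lymphomas, and those with Ctla4 had too few lymphomas to be computed.

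Cd3d and Cd3e formed the closest pair, with r = 0.964 and rho = 0.967 (permutation p = 1e-05, adjusted p = 1.75e-05), r = 0.960 without the 2 lymphomas farthest from the median, and r = 0.963 in set 1 and 0.976 in set 2. Cd8a followed Cd3e at r = 0.898 (rho = 0.903) and Cd28 at r = 0.804 (rho = 0.806). Cd3g followed Cd3d at r = 0.838 and Cd3e at r = 0.780. Cd4 was less closely tied to Cd3e (r = 0.466, rho = 0.615, permutation adjusted p = 0.00279) than to Cd28 (r = 0.782, rho = 0.890), with no test of that difference. Without lymphoma 32 the r of Cd4 was 0.655 with Cd3e and 0.922 with Cd28. In the 34 lymphomas of both lower groups Cd4 and Cd3e no longer passed (r = 0.322, permutation adjusted p = 0.0844), nor did Cd4 and Cd3d (r = 0.314, adjusted p = 0.0844).

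Ctla4 in its lower 34 lymphomas did not pass with Cd3e (r = 0.200, permutation adjusted p = 0.28) or Cd3d (r = 0.315, adjusted p = 0.0816). Its signal was low in all 34, below the median of all probe sets of the set (6.28 in set 1, 6.90 in set 2). Only 5 of 36 and 2 of 7 lymphomas exceeded that median for Ctla4, and as many for Cd28. The effect of such low signal on these correlations was not tested. In the lower 34 Ctla4 was correlated with Cd3g (r = 0.560, permutation adjusted p = 0.0014), Cd4 (r = 0.572), Cd28 (r = 0.538), Icos (r = 0.407, adjusted p = 0.025) and Cd8a (r = 0.375, adjusted p = 0.038). The last 2 missed the threshold when the arrays were brought to equal medians, at r = 0.336 (adjusted p = 0.0669) for Icos and 0.342 (adjusted p = 0.0628) for Cd8a. Leaving out 1 lymphoma ended the pair with Cd8a for 8 lymphomas (2, 9, 12, 14, 22, 25, 35 and 42; lowest r = 0.320) and that with Icos for 2 and 22 (0.354 and 0.336). The pair with Cd3d passed without lymphoma 1, 10, 28 or 32 (r = 0.373, 0.364, 0.362 and 0.389).

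The promoter windows of the CD3 genes, which are neighbours and were correlated, are shown here. Cd3e was less closely correlated with Cd3g (r = 0.780) than with Cd8a (0.898) or Cd28 (0.804) on other chromosomes. A link between position and correlation was not tested. Each window runs from 250 bases before to 50 bases after the gene start in RefSeq (GRCm38.p6), read 5′ to 3′ on the gene's strand, at chr9:44981536-44981835 (plus strand) for Cd3d, chr9:45009562-45009861 (minus) for Cd3e and chr9:44980382-44980681 (minus) for Cd3g. Capitals mark matches to the searched motifs on either strand.
Cd3d: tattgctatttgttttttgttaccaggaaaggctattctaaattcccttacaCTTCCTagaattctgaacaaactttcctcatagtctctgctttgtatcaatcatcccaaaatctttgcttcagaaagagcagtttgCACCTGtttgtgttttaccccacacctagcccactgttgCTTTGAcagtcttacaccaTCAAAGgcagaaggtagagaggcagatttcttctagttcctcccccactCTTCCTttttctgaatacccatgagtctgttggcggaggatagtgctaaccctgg
Cd3e: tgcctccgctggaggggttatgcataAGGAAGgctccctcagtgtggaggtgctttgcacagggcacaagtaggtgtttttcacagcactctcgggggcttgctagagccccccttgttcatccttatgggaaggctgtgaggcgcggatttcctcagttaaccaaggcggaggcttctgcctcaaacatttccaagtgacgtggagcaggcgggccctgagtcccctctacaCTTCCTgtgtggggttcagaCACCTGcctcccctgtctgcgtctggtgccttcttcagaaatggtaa
Cd3g: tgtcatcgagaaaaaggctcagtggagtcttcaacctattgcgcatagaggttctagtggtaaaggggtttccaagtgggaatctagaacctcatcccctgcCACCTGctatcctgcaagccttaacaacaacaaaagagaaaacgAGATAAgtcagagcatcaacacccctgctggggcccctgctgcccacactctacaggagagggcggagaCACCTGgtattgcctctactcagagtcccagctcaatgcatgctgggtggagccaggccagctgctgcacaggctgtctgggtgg
The motifs searched were the E-box CAGGTG, the ETS motif AGGAAG, the GATA motif AGATAA, the RUNX motif TGTGGT and the TCF motif CTTTGA, each with its reverse complement, and no matches overlapped. All 3 windows held the E-box, which E proteins of the lymphoid lineages bind, at -112 in Cd3d, 3 in Cd3e, and -148 and -35 in Cd3g, counted in bases from the gene start to the first base of the match. Of 32851 promoter windows of this length 20.2% held that motif. The Cd3d and Cd3e windows held 2 ETS matches each (35.4% of windows held at least 1), the Cd3d window 2 TCF matches (16%) and the Cd3g window 1 GATA match (11.2%), while RUNX letters (16.8%) were in none of them. The starts on which these windows are set, 44981786 for Cd3d and 45009611 for Cd3e, differ from the outer ends of the gene spans given above. Counted between them, the starts of Cd3g and Cd3d lie 1355 bases apart, and that of Cd3e 27825 bases beyond that of Cd3d. Of the other genes Cd8a and Ctla4 had a window, and that of Ctla4 is shown for its E-box at -19. The letters of none of the 5 motifs were in the Cd8a window.
Ctla4 (chr1:60908775-60909074, plus strand): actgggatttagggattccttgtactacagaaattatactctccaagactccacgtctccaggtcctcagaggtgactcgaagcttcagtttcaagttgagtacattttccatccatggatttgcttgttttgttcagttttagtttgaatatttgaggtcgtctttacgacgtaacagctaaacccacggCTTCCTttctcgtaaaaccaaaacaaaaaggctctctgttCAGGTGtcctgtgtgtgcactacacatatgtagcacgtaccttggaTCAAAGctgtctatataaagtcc
Windows for Cd4, Cd28 and Icos were not used here. A match is a stretch of letters and shows no binding.

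The spleen was compared with the lymphomas in 1 model over all 8721 genes. For the 8 transcripts no difference between them exceeded the spread of the lymphomas. The spleen levels were 7.23 for Cd3d, 7.21 for Cd3e, 6.05 for Cd3g, 6.78 for Cd4, 7.25 for Cd8a, 5.15 for Cd28, 6.44 for Icos and 5.54 for Ctla4. For each gene, on the probe set used, at least 2 of the 7 set 2 lymphomas lay above the spleen and at least 2 below it. Cd3g differed by -1.45 ± 2.01 (SE) and Cd3d by -1.20 ± 1.57 from the mean of those lymphomas, and the other 6 by -0.30 to -1.13, although without the set in the fit the differences of Cd3e, Cd4, Cd8a, Ctla4 and Icos were positive, and that of Cd4 was 0.01 without lymphoma 40.

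None of the 8 passed the limma test (lowest adjusted p = 0.616), and none had an unadjusted p under 0.05, while 13.4% of all genes passed (7.6% higher and 5.79% lower). On the probe set used for each gene, the spleen lay outside the range of the 7 lymphomas for 0 of the 8 genes, against 19.6% of genes above and 31% below it. On the second probe set of Cd4 the spleen, at 5.50, lay below all 7 (lowest 5.64). With 1 spleen the spread is that of the lymphomas, so a change in the spleen itself has no replicate check. The median difference was -0.54 over the 8 genes and -0.16 over all genes. The T cell list of 7 other genes likewise had 0 called genes, and Cd8b1, the CD8 beta chain gene, stood at 5.31 in the spleen against a set 2 median of 6.61. Erythroid genes passed in 5 of 5 cases, with Klf1 at 12.65 in the spleen, and neutrophil genes in 5 of 7. Their part in the T cell values was not tested.

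To see which genes went with the shared T cell level, every gene was regressed on Cd3e over the 43 lymphomas with the set as a covariate. Slopes are in log2 units per log2 unit of Cd3e, and a gene is called here when its limma adjusted p (Benjamini-Hochberg over all genes tested) was under 0.05. Of 8720 genes 1204 had a positive and 1823 a negative slope that passed, 34.7% in all. All 7 other genes of the group rose with Cd3e, against 13.8% of all genes called in that direction and 20.9% in the other. The median slope of the 7 was 0.99 and that of all genes -0.03.

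The slope was 1.99 ± 0.09 (SE) for Cd3d (adjusted p = 4.83e-22) and 2.06 ± 0.25 for Cd3g (adjusted p = 5.19e-08). It was 1.39 ± 0.16 for Cd28, 0.99 ± 0.08 for Icos, 0.83 ± 0.13 for Ctla4, 0.63 ± 0.18 for Cd4 (adjusted p = 0.00744) and 0.60 ± 0.05 for Cd8a (adjusted p = 5.15e-13). Leaving out any 1 lymphoma ended none of these 7 calls. In the 34 lymphomas of both lower groups, Cd3d, Cd3g, Cd28, Cd8a and Icos remained called, but the slope of Ctla4 was 0.12 ± 0.11 (adjusted p = 0.686) and that of Cd4 0.60 ± 0.31 (adjusted p = 0.408). In those 34 lymphomas 111 genes were called at all, 99 of them as in all 43.

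**Figure D3:**
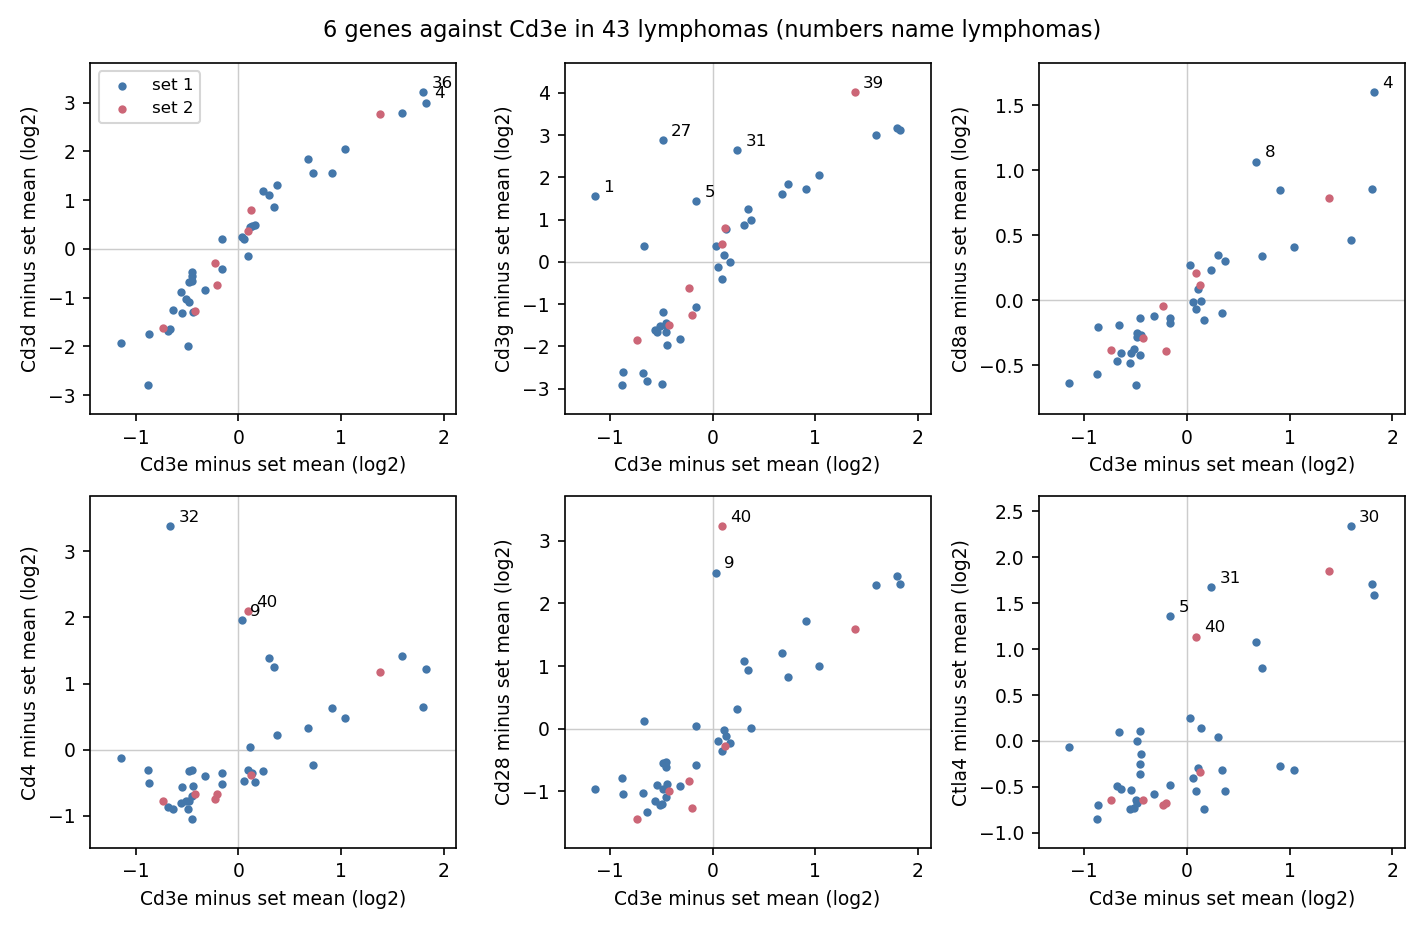
Cd3d, Cd3g, Cd8a, Cd4, Cd28 and Ctla4 against Cd3e, each as the level minus the set mean (log2) in 43 lymphomas of set 1 (blue) and set 2 (red). Cd3d follows Cd3e closely, while lymphomas 1, 5, 27 and 31 lie high for Cd3g, lymphomas 9, 32 and 40 for Cd4, 9 and 40 for Cd28, and 5, 31 and 40 for Ctla4.

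Besides Cd3d, many of the genes most like Cd3e over the 43 lymphomas, ranked by Pearson's r, have known roles in T cells. The probe sets annotated to Trav9d-3 and Trbv1, variable segments of the T cell receptor alpha and beta chains, had r = 0.960 and 0.954 with it. Sh2d1a, the adaptor SAP, had r = 0.958, Cd27, a costimulatory receptor of the TNF receptor family, 0.952, Cd96 0.942 and Prkcq, protein kinase C theta, 0.938. Ms4a4b, Nkg7, the T lineage transcription factor Bcl11b, the Tec family kinase Txk, Cxcr6, Il27ra, Eomes, Tent5c and the adaptor Lat followed at 0.901 to 0.856. All these points share their arrays, and the values are a description.

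Sh2d1a ranged from 3.41 through 4.24 to 7.73 in set 1 and from 4.48 through 4.64 to 7.54 in set 2, stood at 4.77 in the spleen, and had a slope of 1.62 ± 0.08. The steepest slopes of these genes were those of Ms4a4b (2.42 ± 0.18) and Trbv1 (2.33 ± 0.11). In the 34 lymphomas of both lower groups Sh2d1a (1.44 ± 0.13, adjusted p = 4.86e-10) and Trbv1 (2.79 ± 0.16, adjusted p = 1.99e-14) were still called.

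Cd247, the zeta chain that completes the receptor complex, rose with Cd3e by 0.93 ± 0.18 (adjusted p = 0.000127), and Ptcra, the pre-T alpha chain of immature T cells, did not pass (0.04 ± 0.06). Of 13 T cell receptor signalling genes 9 rose and 0 fell, led by Sh2d1a, Prkcq, Txk (0.61 ± 0.05) and Lat (1.16 ± 0.11). Zap70, Rasgrp1, Vav1 and Nfatc2 did not pass. Of 13 adhesion and surface genes 8 rose, among them Cd27 (1.31 ± 0.07), Ms4a4b, Cxcr6 (0.75 ± 0.07) and Thy1 (1.45 ± 0.17). Of 7 T lineage transcription factors 6 rose, including Bcl11b (1.15 ± 0.09), Eomes (1.06 ± 0.10) and Tox (1.25 ± 0.16).

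Among 9 further costimulation and checkpoint receptors 6 rose with Cd3e. These included Tnfrsf4, which encodes OX40 (0.67 ± 0.07), Tnfrsf18, which encodes GITR (1.07 ± 0.11), Pdcd1, the PD-1 gene (1.21 ± 0.14), and Lag3 (0.97 ± 0.11). Of 8 ligand genes 7 rose: Cd80, Cd86, Icosl, Cd274, Pdcd1lg2, Cd40 and Tnfsf9, with slopes of 0.83 ± 0.12 for Cd40 and 0.77 ± 0.16 for Cd274, the PD-L1 gene. Cd80 and Cd86 encode the ligands of CD28 and CTLA-4, and Icosl that of ICOS. In the 34 lymphomas of both lower groups 2 of 9 receptors (Tnfrsf4 and Tnfrsf18) and 0 of 8 ligands were called.

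Cytotoxic and effector genes moved in the same direction. Of 8 NK and cytotoxic genes 7 rose, with the largest list median of all (1.48), and these included Nkg7 (1.55 ± 0.12), Ccl5 (1.98 ± 0.23), Gzma (1.41 ± 0.15) and Klrd1 (1.34 ± 0.14). Prf1, perforin, was not among them. Of 13 cytokine and cytokine receptor genes 12 rose, including Ifng (0.85 ± 0.14), Xcl1, Ccl4 and Il2rb. Of 13 interferon gamma response genes 12 rose, with Tap1 at 0.66 ± 0.08 and Irf1 at 0.79 ± 0.11. Of 8 MHC class II genes 7 rose, and so did 4 of 5 GIMAP genes, small GTPases of lymphocytes, with Gimap4 at 2.02 ± 0.32. With only the 34 lymphomas of both lower groups, 4 of 8 NK and cytotoxic genes, 1 of 13 interferon gamma response genes (Irf1) and 1 of 5 GIMAP genes were called, and 0 of the cytokine, MHC class II, macrophage, precursor B cell, ribosome biogenesis and G2/M genes.

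Markers of some other cells moved too, and their part in the slopes beyond C1qa and Col1a1 was not tested. Of 8 macrophage markers 4 rose with Cd3e (Csf1r, Cd68, Lyz2 and Cd14), and the mean level of that list ranged from 5.47 to 10.88 in set 1 and from 6.40 to 10.58 in set 2. The neutrophil list had 3 of 7 and the dendritic cell list 1 of 3 genes called, while 0 of 7 stroma and 0 of 5 erythroid genes passed. With C1qa, a macrophage gene, as a covariate the counts fell to 784 and 1028, and all 7 members were still called, with Cd4 at 0.54 ± 0.19 (adjusted p = 0.0435) and Cd3d at 1.998 ± 0.092. With Col1a1, a gene of the stroma list, as a covariate the counts were 1373 and 2031, and all 7 members were still called. In lymphomas 4, 30, 36 and 39 C1qa stood 2.20, 1.99, 1.23 and 4.004 above the set mean.

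Other genes fell as Cd3e rose, 20.9% of all genes tested. Of 13 ribosome biogenesis genes 9 fell, such as Wdr12 (-0.40 ± 0.06) and the nucleolar methyltransferase gene Fbl (-0.24 ± 0.04), while 3 of 13 G2/M genes fell (Ccna2, Bub1b and Aurkb), a share near that of all genes. The same share of 13 precursor B cell genes, 3, fell, namely Vpreb3 (-1.002 ± 0.346), Sox4 (-1.70 ± 0.47) and Cd93 (-1.37 ± 0.34). Of 6 pan B cell genes Ms4a1 (0.98 ± 0.37, adjusted p = 0.0361) and Cd22 (0.44 ± 0.17, adjusted p = 0.0431) rose and 0 fell. The genes with the lowest r were Mios (-0.791), Map2k5, Zfp955b, Uri1, Zbtb44, Abhd17c, Eri1, Stx17, Mbtd1 and Mef2d (-0.742).

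Myc, the driver of these tumours, fell by 0.56 ± 0.09 per unit of Cd3e (adjusted p = 4.9e-06, r = -0.709). Its level ranged from 9.15 through 10.54 to 11.44 in set 1 and from 9.90 through 11.22 to 11.78 in set 2. Lymphomas 30, 39, 36 and 4 lay 1.31, 1.25, 1.18 and 0.78 below their set mean of Myc. Its slope in the 34 lymphomas of both lower groups was -0.36 ± 0.15 and did not pass (adjusted p = 0.272). Cdkn2a, a tumour suppressor locus, had a slope of -0.41 ± 0.49 (adjusted p = 0.548) and Cd79a one of -0.35 ± 0.22 (adjusted p = 0.222), which passed without lymphoma 32 at -0.50 (adjusted p = 0.00689) and without lymphomas 9, 13, 32 and 40 at -0.46 ± 0.09 (adjusted p = 9.58e-05).

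**Figure D4:**
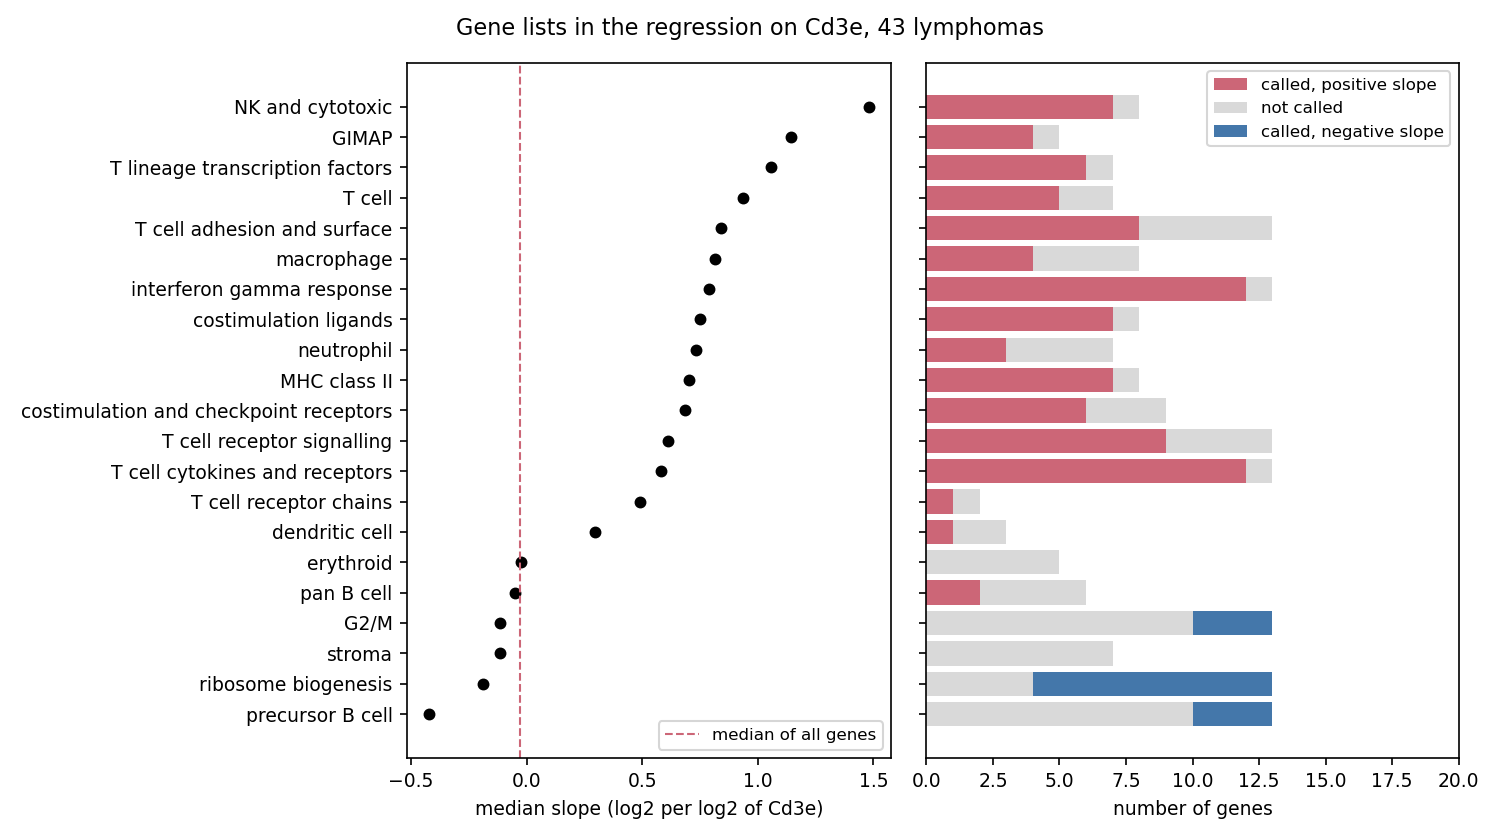
Left, median slope of each gene list (log2 per log2 unit of Cd3e) with the median of all genes as a dashed line; right, the number of its genes with a called positive slope (red), a called negative slope (blue) or no call (grey), over 43 lymphomas. NK and cytotoxic genes have the highest median (1.48) and precursor B cell genes the lowest (-0.42).

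The next regressions asked which genes followed Cd8a or Cd4 at equal Cd3e, with both in the model. At equal Cd3e 0 of 8719 genes were called for Cd8a by limma (0% called; 384 had an unadjusted p under 0.05), nor were any with its second probe set as the predictor. On the probe set used, Cd8a had the smallest SD of the 8 genes (0.49, against 1.04 on its second probe set) and r = 0.898 with Cd3e. Little of its variation on the probe set used was thus left at equal Cd3e, and the fit cannot show that no gene follows Cd8a. The slope of Cd8b1, the partner chain gene, was 3.25 ± 0.98 (adjusted p = 0.989). Of the 6 other members Cd28 had the largest slope (1.22 ± 0.51, adjusted p = 0.989), and 0 passed. Without the set in the fit 3182 genes were called for Cd8a.

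At equal Cd3e 1650 genes followed Cd4, 644 with a positive and 1006 with a negative slope (18.9%, or 7.39% and 11.5%). Of the 6 other members Cd28 rose with Cd4, by 0.67 ± 0.09 (adjusted p = 2.63e-07), and 5 did not pass. Without lymphoma 32 that slope was 1.04 ± 0.09 (adjusted p = 8.64e-11), and without lymphomas 9, 13, 32 and 40 it was 0.62 ± 0.10 (adjusted p = 0.00017). The strongest positive slopes, ranked by limma's t statistic here and in the regressions that follow, were those of Fyb (1.18 ± 0.08), an adaptor of T and myeloid cells, Fads3, Sult1a1, Plxdc2, Septin3 and Flt3 (0.92 ± 0.10), a cytokine receptor of early haematopoietic and dendritic cells. The strongest negative were those of Cd79a (-1.07 ± 0.08), Nmi, the B cell coactivator Pou2af1 (-1.36 ± 0.14), Cd79b (-0.66 ± 0.07), Cd24a and Sh3bp5. Without lymphomas 9, 13, 32 and 40 none of these last 6 passed, Cd79a standing at -0.42 ± 0.16 (adjusted p = 0.112) and Pou2af1 turning to 0.14 ± 0.12 (adjusted p = 0.547). Of the positive ones Fyb and Sult1a1 (0.84 ± 0.11) still passed, and Flt3 (0.54 ± 0.20, adjusted p = 0.111), Fads3, Plxdc2 and Septin3 did not.

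Of 13 T cell surface genes 5 rose with Cd4 at equal Cd3e (Cd5, Thy1, Cd7, Cd8b1 and Cxcr3), as did 2 of 3 dendritic cell markers (Itgax and Batf3) and 1 of 8 macrophage markers (Cd68). Of 6 pan B cell genes 4 fell, and of 13 G2/M genes 9. Much of this changed without a few lymphomas. Without lymphoma 32, 530 genes were called, 439 of them as before, with 3 pan B cell genes and 1 of 13 G2/M genes falling and Cd8b1 at 1.17 ± 0.23 (adjusted p = 0.00108). Without lymphomas 9, 13, 32 and 40, 543 were called and 174 shared, with 0 of 6 pan B cell genes, 0 of 13 G2/M genes, Cd8b1 at -0.05 ± 0.26 (adjusted p = 0.94) and Fyb at 0.79 ± 0.18 (adjusted p = 0.00378). In that fit 0 of 13 T cell surface genes passed, and of 3 dendritic cell markers 1 did (Itgax), with Batf3 at 0.19 ± 0.16 (adjusted p = 0.503). There 6 of 7 stroma genes and 2 of 8 macrophage genes rose with Cd4.

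Lymphomas 9, 32 and 40 were singled out after their values were seen, and are described without a test. Their Cd4 stood 1.97, 3.39 and 2.10 above the set mean, but their Cd3e 0.03 above, 0.67 below and 0.09 above it. Cd28 was 2.50 and 3.24 above in lymphomas 9 and 40 and 0.12 above in lymphoma 32. Cd8b1 reached 11.16, 11.82 and 11.46, the 3 highest of the 43 lymphomas. Cd8a differed from the set mean by 0.27, -0.20 and 0.21 on the probe set used. On its second probe set Cd8a stood at 6.25 in lymphoma 9 and 4.13 in lymphoma 32, against a set 1 mean of 5.04. In lymphoma 40 that reading was 6.79, against a set 2 mean of 5.72, so Cd8a was raised in lymphomas 9 and 40 there.

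Fyb was 3.30, 3.43 and 2.34 and Flt3 2.45, 4.05 and 1.52 above the mean in lymphomas 9, 32 and 40. Genes of B cell identity were low in the same 3. The B lineage factor gene Ebf1 differed by -5.08, -5.29 and -3.07, Pou2af1 by -5.72, -5.99 and -2.57 and Cd79a by -2.23, -4.63 and -1.97. In lymphomas 4, 30, 36 and 39 Cd3e was 1.38 to 1.83 above the mean, Ebf1 differed by -0.36 to -0.01, and Cd79a by -0.63, -0.69, -0.87 and -0.80. These lymphomas too lay above the mean for Fyb (2.30, 1.84, 1.81 and 2.26) and Cd8b1 (3.43, 0.46, 2.53 and 0.69). Their Cd4 was 0.64 to 1.42 and their Flt3 0.55 to 1.03 above it.

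**Figure D5:**
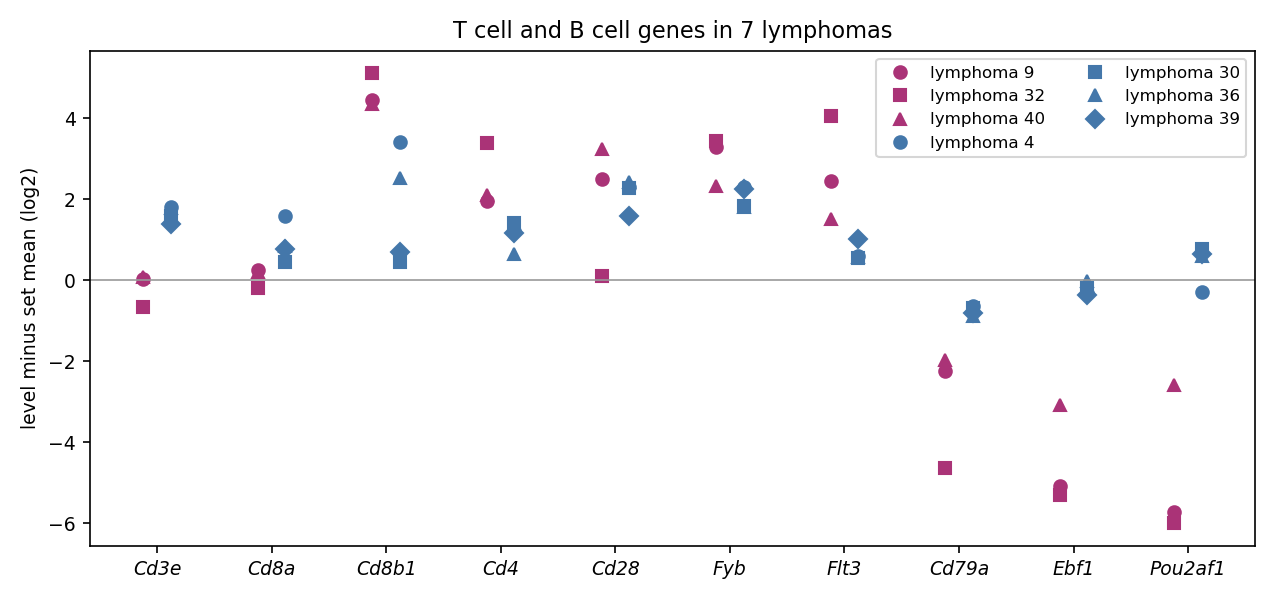
Level minus the set mean (log2) of 10 T cell, coreceptor and B cell genes in lymphomas 9, 32 and 40 (purple) and 4, 30, 36 and 39 (blue). The purple points are high for Cd4, Cd8b1, Fyb and Flt3 and low for Cd79a, Ebf1 and Pou2af1 with Cd3e between -0.67 and 0.09. The blue points are high for Cd3e with Ebf1 close to 0, and they too lie above 0 for Cd4, Cd8b1, Fyb and Flt3.

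At equal Cd3e 1219 genes followed Icos, 347 up and 872 down (14%, or 3.98% and 10%). Of the 6 other members Ctla4 rose with it, by 1.16 ± 0.17 (adjusted p = 0.000139). The other strong positive slopes were those of Tnfrsf4 (0.64 ± 0.09), Hpgds, a prostaglandin D synthase, Tnfrsf9, which encodes 4-1BB (0.85 ± 0.13), Penk and Pdcd1 (1.15 ± 0.19). Of 9 costimulation and checkpoint receptors 5 rose, of 8 ligands 4, and of 8 MHC class II genes 6. Of 8 macrophage markers 3 rose (Csf1r, Cd68 and Lyz2).

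Genes that fell with Icos included Fam136a (-0.57 ± 0.09), Xpo5, Rcc2, Fastkd5, Ppp2r5d and Thap4, with 9 of 13 G2/M and 9 of 13 ribosome biogenesis genes. With only the 34 lymphomas of both lower groups limma called 0 genes for Icos (1621 had an unadjusted p under 0.05) and Ctla4 stood at 0.48 (adjusted p = 0.226). Leaving out lymphoma 18, 30, 33 or 39 lowered the count of 1219 to 649, 735, 691 and 644.

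At equal Cd3e 979 genes followed Ctla4, 375 up and 604 down (11.2%, or 4.3% and 6.93%). Icos (0.46 ± 0.07, adjusted p = 6.25e-05), Cd3g (0.94 ± 0.27, adjusted p = 0.0202) and Cd28 (0.52 ± 0.17, adjusted p = 0.0438) were the 3 of 6 members that rose with it. Cd28 lost its call in 15 of the 43 fits that left out 1 lymphoma, with 0.30 (adjusted p = 0.151) without lymphoma 40, and also in set 1 alone (0.30, adjusted p = 0.229), and Cd3g did without lymphoma 31 at 0.86 (adjusted p = 0.0527). Processing mattered too, as Cd28 did not pass with no filter on low genes (limma adjusted p = 0.057). Nor did it with the mean of the probe sets of a gene (0.49, adjusted p = 0.0812). Cd3g did not pass without the set in the fit (0.69, adjusted p = 0.0844). Within both lower groups (34 lymphomas) neither Cd3g (2.45, adjusted p = 0.0518) nor Icos (0.32, adjusted p = 0.234) passed.

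The strongest positive slopes on Ctla4 were those of Zcchc18 (1.63 ± 0.19), Tnfrsf18 (0.67 ± 0.09), Prdm1, which encodes Blimp-1 (0.94 ± 0.14), Icos, Lag3 (0.62 ± 0.10) and Pdcd1 (0.71 ± 0.12). Of 9 costimulation and checkpoint receptors 5 rose and Slamf6 fell. Of 13 precursor B cell genes 6 fell, and of 8 MHC class II genes 6 rose. The strongest negative slopes were those of Ehd2 (-0.89 ± 0.13), Bcat1, Camkk2, Uhrf1, Brd3 and Zfp428. In the 34 lymphomas of both lower groups 65 genes were called, and leaving out lymphoma 13, 18 or 33 gave 1500, 627 and 585.

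Cd3g departed from the other CD3 genes in some lymphomas, so the same regression was run on it, a choice made after the data were seen. At equal Cd3e 709 genes followed Cd3g, 248 up and 461 down (8.13%, or 2.84% and 5.29%), and of the 6 other members Cd3d (0.17 ± 0.05, adjusted p = 0.0131) and Ctla4 (0.24 ± 0.07, adjusted p = 0.0256) rose with it. The Ctla4 call was lost without lymphoma 1, 5 or 31, with adjusted p of 0.0695, 0.0535 and 0.0622, in set 1 alone (0.23, adjusted p = 0.0504) and without the set in the fit (0.20, adjusted p = 0.109). The Cd3d call was lost in the 34 lymphomas of both lower groups (0.14, adjusted p = 0.0627). The strongest positive slopes were those of Hnrnpll (0.70 ± 0.07), a regulator of splicing in lymphocytes, Actn1, Cd247 (0.53 ± 0.07), Trav9d-3, Gfi1b and Vsir, which encodes the checkpoint protein VISTA. Ift74, Slamf6 (-0.56 ± 0.08), Rcbtb1, Tmem243, Gch1 and Apool had the strongest negative slopes. The count was 429 without lymphoma 1 and 464 without lymphoma 32.

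Cd3g was 1.56, 1.43, 2.88 and 2.64 above the set mean in lymphomas 1, 5, 27 and 31, again named after their values were seen. In the same order Cd3e differed by -1.14, -0.16, -0.48 and 0.24 and Cd3d by -1.94, 0.19, -0.68 and 1.18. Lymphoma 1 had the lowest Cd3e of the 43. Cd247 was higher by 2.46, 2.61, 1.45 and 0.27, and Hnrnpll by 2.60, 2.49, 2.21 and 1.34. Cdkn2a was lower in all 4, by -2.19, -3.71, -2.86 and -3.21. Low Cdkn2a was not particular to them, as it ranged from 3.97 through 7.59 to 11.46 in set 1. Lymphomas 17, 24 and 32, for example, differed from the set mean by -3.10, -2.91 and -2.79. The slope of Cdkn2a on Cd3g at equal Cd3e was -0.996 ± 0.256 (adjusted p = 0.0121). That slope was -0.77 (adjusted p = 0.0638) with the difference of the array's 3′ and 5′ control probes as a covariate, and -0.94 (adjusted p = 0.0512) in the 34 lymphomas of both lower groups.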

How the data were processed

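Total RNA of 43 lymphomas and 1 spleen was hybridised to 44 arrays, and the authors deposited log2 expression values per probe set made with RMA in the affy package, per the submitters' processing notes, with versions not given in the sources used here. Of 22690 probe sets 64 were controls, 20380 had 1 gene symbol and were used, 691 had several and 1555 none. The probe set with the highest mean stood for each of 12393 genes, and 8721 genes with at least 1 array above the median of its set were kept, with all 8 members passing on their lymphoma levels. Whether RMA was run on each set by itself is not given in the sources used here.

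Fits used limma 3.58.1 in R 4.3.3 (lmFit, eBayes with an intensity trend, two-sided, Benjamini-Hochberg at 0.05), with the set as a covariate. Correlations used set-centred values, and genes whose values fell into 2 groups (mclust 6.1.1) were correlated in the lower one. The scripts were tested on simulated data. The members, lists and tests were chosen with earlier results of these data known. Named genes were the 8 members, the 15 highest and 10 lowest r with Cd3e among called genes, the 6 called genes with the most positive and the 6 with the most negative t at equal Cd3e, up to 4 genes of each list, and Myc, Cdkn2a and Cd79a. One further gene of that rule is not reported here. The lower-group fits, the second probe sets as predictors and the regression on Cd3g were added after the data were seen, and Cd8b1, Ebf1 and single lymphomas were chosen after their values were seen.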

Additional observations from a re-analysis of the deposited data

How the results depend on the processing

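Leaving out the set from the fits changed most counts. It gave 1128 genes higher and 41 lower in the spleen (663 and 505 with it), 196 negative slopes on Cd3e, and at equal Cd3e 3182 genes for Cd8a (99.8% positive), 573 for Cd4, 154 for Icos and 768 for Ctla4. The differences of the spleen then turned to 0.053 for Cd3e, 0.20 for Cd4, 0.29 for Cd8a, 0.43 for Ctla4 and 0.066 for Icos, and Cd4 turned to 0.008 without lymphomas 9, 13, 32 and 40, none of them past the threshold. Equal column medians gave 775 genes lower in the spleen (43.6% of calls higher, against 56.8%), and the lymphomas of set 2 alone gave 235. C1qa as a covariate gave 784 and 1028 slopes on Cd3e, and the lower groups of Icos and Ctla4 gave 79 and 32. At equal Cd3e those lower groups gave 0 genes for Icos and 65 for Ctla4, and set 1 alone gave 388 and 599. For Cd4, 543 genes were called without lymphomas 9, 13, 32 and 40 and 556 with its second probe set as the predictor, and for Cd3g 456 without those lymphomas. Of the pairs that could be computed in set 2 alone, 7 passed and 14 did not.

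Leaving out 1 lymphoma at a time gave 423 to 775 genes lower in the spleen, the latter without lymphoma 39, and at equal Cd3e 530 to 1849 genes for Cd4, 644 to 1709 for Icos, 585 to 1500 for Ctla4 and 429 to 748 for Cd3g. The spleen difference of Cd4 ranged from -0.473 to 0.008, the latter without lymphoma 40. The cause of these changes was not tested. Among the 7 member slopes on Cd3e, equal medians or no set in the fit changed no sign and no call. No paired analysis was possible because there is only 1 spleen and the labels link no lymphoma to it. The number of arrays, 1 spleen and 7 lymphomas in set 2, limits what can be detected. Without the set, the share of positive calls rose from 39.8% to 88.1% for Cd3e, from 39% to 83.1% for Cd4, from 28.5% to 94.8% for Icos and from 38.3% to 96.7% for Ctla4, fell from 35% to 17.6% for Cd3g, and the median spleen difference of all genes moved from -0.16 to 0.41 (-0.29 with equal medians), that of slopes on Cd8a to 0.51 and on Ctla4 to 0.11.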
